A study of Mus musculus with 48 samples.

Results

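The cells described here were the granulocytes of the spleen: all cells that carried the deposited cell type label Granulocytes and came from a spleen. There were 245 such cells among the 3320 spleen cells with a label and the 12096 labelled cells of the whole series. The study profiled joint, lung, muscle, skin and spleen of 10 mice by Seq-Well, a microwell method that tags the transcripts of each cell with a barcode and each molecule with a unique molecular identifier (UMI). All mice were male DBA1/J mice aged 8 to 12 weeks. The 6 mice with collagen-induced arthritis (CIA) received 100 µg bovine type II collagen in complete Freund's adjuvant at the base of the tail and a booster in incomplete adjuvant on day 20, and the 4 healthy mice received saline. Mice S1, S2 and S3 had severe arthritis with a summed limb score of 8, and S5, S6 and S8 had mild arthritis with scores between 2 and 5. The severe mice and healthy mouse H3 carried the prefix 2CIA in their names. The mild mice and healthy mice H4, H6 and H7 carried the prefix CIA. The labels do not explain these prefixes, which are read here as separate experiments. Severity and experiment thus cannot be told apart.

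Neutrophils, which make up most granulocytes, are normally built in bone marrow. Dividing promyelocytes first make the primary granules with myeloperoxidase and serine proteases, myelocytes and metamyelocytes then make the specific granules with lactoferrin and cathelicidin, later cells make the gelatinase granules, and mature cells stop dividing and switch to surface receptors, secreted stefins and resistin-like gamma. In mice the spleen can also host this sequence, which is called extramedullary granulopoiesis. The order of the gene lists below follows these stages.

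The label fitted its markers. S100a8 and S100a9 (the subunits of calprotectin), Camp (cathelicidin) and Ngp (neutrophilic granule protein) together held a median of 43.0% of a cell's UMIs, with a range of 4.01% to 69.6%, and 232 of the 245 cells held all 4 transcripts. These genes define the cells and are no finding. Of the 3068 spleen cells with another label, 70 had at least 20% marker UMIs, compared with 239 of the 245 granulocytes. A further 7 spleen cells were labelled Neutrophils and were counted in neither group. Spleen and joint cells had both been thawed from cryopreserved tissue and passed through a strainer, but the joint was also minced and digested with enzymes. The spleen was treated with red cell lysis buffer, which the study also names for other organs. Organ and dissociation thus cannot be told apart. Of the barcodes of labelled cells, 50 occurred in more than 1 sample, and 3 spleen granulocytes carried such a barcode. No doublets were removed here.

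The granulocytes were very unevenly spread over the mice: 147 came from S2, 47 from S1 and 22 from S3, or 88.2% from the severe mice, whereas the mild mice gave 6, 5 and 6 cells and the healthy mice 4, 6, 2 and 0. Each CIA spleen gave between 7885 and 185954 granulocyte UMIs, with a median of 674 to 1218 UMIs per cell. In the healthy mice H3, H4 and H6 the granulocytes gave between 1457 and 4693 UMIs in all.

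In the severe mice the granulocytes were 10.5% (S1), 16.1% (S2) and 14.3% (S3) of the labelled spleen cells. The mild mice had 1.67% (S5), 3.36% (S6) and 2.05% (S8). The healthy mice had 2.42% (H3), 1.22% (H4), 1.50% (H6) and 0 of 217 cells (H7), which allows a share of up to 1.38%. Every severe mouse was thus above every other mouse, while mild and healthy mice overlapped. The exact 95% binomial interval was 7.83% to 13.7% in S1, the lowest severe mouse, and 1.10% to 7.66% in S6, the highest of the others, so that these just did not overlap.

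**Figure D1:**
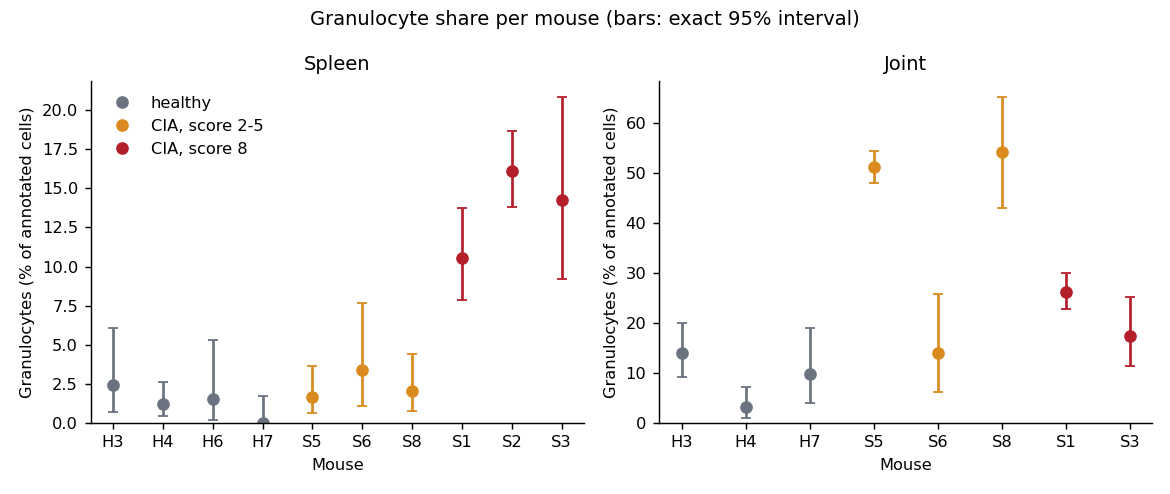
Granulocytes as a percentage of the labelled cells of each spleen (left) and joint (right), for healthy mice, mice with scores 2 to 5 and mice with score 8; the panels have different axes. Bars are exact 95% binomial intervals and cover counting error only. The 3 severe spleens lie between 10.5% and 16.1%, above all other spleens.

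Over all CIA mice the share was 8.00% ± 6.47 (SD, n = 6) against 1.29% ± 1.00 in healthy mice (n = 4), a difference of 6.71 percentage points (two-sided exact permutation test, p = 0.0524; adjusted p = 0.248 over the 8 spleen cell types compared). The share thus missed the threshold. With all cells of the sample as the denominator the difference was 6.19 percentage points (exact permutation p = 0.0476), with the Neutrophils label added it was 6.95 points (exact permutation p = 0.0476), and without the cells labelled Erythrocytes it was 7.40 points (exact permutation p = 0.0571). When each mouse was left out in turn the exact permutation p lay between 0.0635 and 0.167. Within the experiment CIA the 3 mild mice had 2.36% and the 3 healthy mice 0.908%, with every mild mouse above every healthy one (exact permutation p = 0.1, the smallest that 3 against 3 allow). Within the experiment 2CIA the 3 severe mice had 13.6% and the single healthy mouse 2.42% (exact permutation p = 0.25, the smallest possible). Severe against mild mice differed by 11.3 percentage points (exact permutation p = 0.1, again the smallest possible), and severe against healthy mice by 12.4 points (exact permutation p = 0.0286, the smallest possible).

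The joint did not show the same order of mice. Joint granulocytes were 51.2% (S5) and 54.2% (S8) of the labelled cells in a pair of mild mice and 14.0% in the third mild mouse, S6, compared with 26.3% (S1) and 17.5% (S3) in severe mice and 3.14% to 13.9% in 3 healthy mice. The joint of S2 was not among the samples analysed here. Over the mice the joint share was 32.6% ± 18.9 in CIA (SD, n = 5) and 8.91% ± 5.41 in healthy mice (n = 3; exact permutation p = 0.0893, with a smallest possible p of 0.0179).

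For each stage, the UMIs of a gene list were summed over the granulocytes of a sample and scaled to all their UMIs, giving CPM, the UMIs of a gene or list per 1000000 UMIs. These levels were compared between 6 CIA spleens and 5 CIA joints, without a test, since the lists were chosen with earlier results of these data known.

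The primary granule list holds Mpo (myeloperoxidase), the serine proteases Elane, Prtn3 and Ctsg, and Ms4a3, a membrane protein of granulocyte and monocyte precursors. In spleen granulocytes its level was 191 CPM in S1, 1253 in S2, 1213 in S3, 483 in S5, 127 in S6 and 353 in S8. The mild spleens S5, S6 and S8 together held 8 such UMIs, against 263 in the severe spleens. In joint granulocytes the level ran from 0 to 875 CPM with a median of 357 CPM, so the organs overlapped. The means were 603 ± 504 CPM in spleen (SD, n = 6) and 380 ± 338 CPM in joint (n = 5), and spleen was higher in 4 of the 5 mice with both organs. The direction was not stable, since the log2 ratio of spleen to joint was 0.67 over all mice and −0.36 among the mice of the experiment CIA alone. The ratio of −0.36 rested on the 8 UMIs of the mild spleens.

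The specific granule list (Camp, Ngp, Ltf, Lcn2, Fcnb, Cd177, Chil3 and Olfm4) held a lowest, median and highest level of 41306, 57970 and 72622 CPM in spleen and 31470, 42798 and 73841 CPM in joint. The gelatinase granule list (Mmp8, Mmp9, Mmp25, Adam8 and Hp) gave 1329, 1901 and 2657 CPM in spleen and 832, 2512 and 5859 CPM in joint. Hp alone gave 79.2% of the UMIs of this list in CIA spleens, so its sum there mainly reflects Hp. Both lists overlapped between the organs, and each was higher in spleen in 3 of 5 mice. Camp gave 47.5% of the specific granule UMIs in CIA spleens. Camp and Ngp define the label, so the overlap of this list partly follows from how the cells were chosen. Neither sum set the organs apart.

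The mature neutrophil list did. It holds 16 genes, among them Retnlg (resistin-like gamma), the stefins Stfa1, Stfa2 and Stfa2l1, Il1r2 (the decoy receptor for interleukin 1), Cxcr2 (a chemokine receptor), Slpi (a protease inhibitor) and the lectin receptors Clec4d and Clec4e. Its lowest, median and highest levels were 942, 2072 and 3796 CPM in spleen and 5118, 11659 and 14061 CPM in joint. The samples of the organs did not overlap, and the mean was 4.31-fold lower in spleen, with 2358 ± 1179 CPM (SD, n = 6) against 10153 ± 4121 CPM (n = 5). The difference had the same direction in 5 of 5 mice, and the log2 ratio lay between −2.29 and −1.94 when each sample was left out in turn. In the granulocytes of healthy muscle, given as a further reference for an organ outside the marrow, the list ranged from 3488 to 8417 CPM (n = 4).

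The cell cycle list held 4333, 6007 and 6722 CPM in spleen (lowest, median, highest) and 2511, 3544 and 4990 CPM in joint. Its mean was 5747 ± 928 CPM in spleen (SD, n = 6) and 3531 ± 1005 CPM in joint (n = 5), and spleen was higher in 4 of 5 mice. Hmgb2, a chromatin protein of dividing and immature cells, gave 48.4% of the UMIs of this list in spleen. The progenitor list (Kit, Cd34, Flt3, Sox4 and Cdk6) was near 0, with 9 UMIs over all CIA spleen granulocytes.

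**Figure D2:**
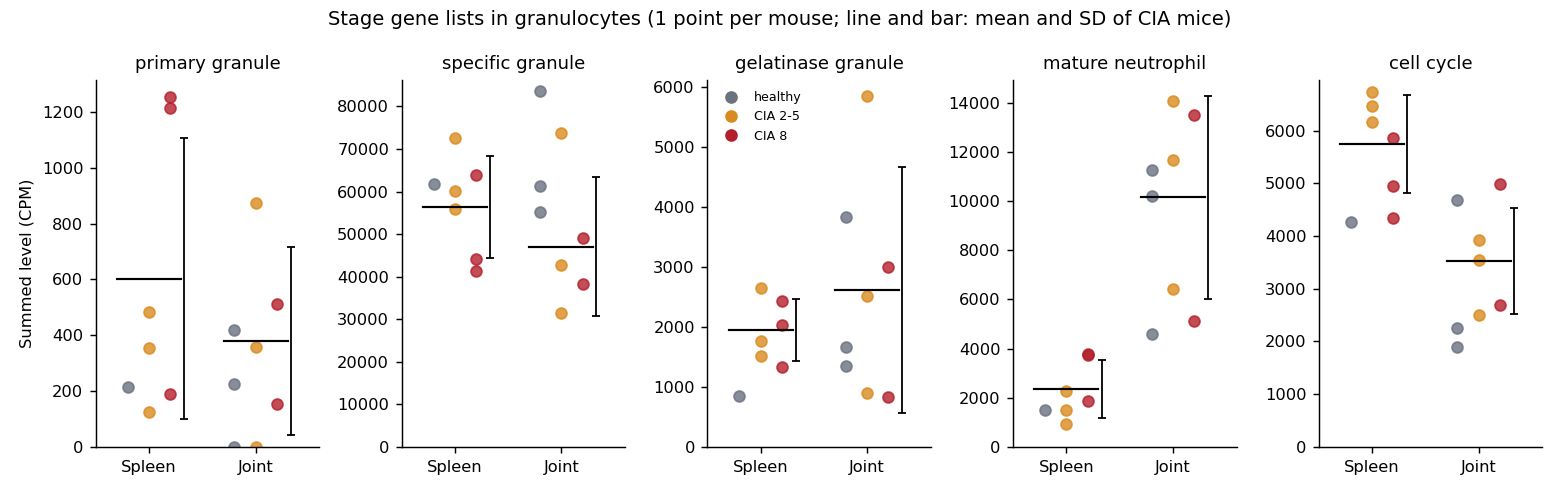
Summed level of each stage list (CPM) in granulocytes of spleen and joint, with 1 point per mouse for healthy, mild (CIA 2-5) and severe (CIA 8) mice; lines and bars are the mean and SD of the CIA mice. Of the 5 lists, the mature neutrophil list is the one whose CIA spleens (942 to 3796 CPM) and CIA joints (5118 to 14061 CPM) do not overlap.

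In healthy spleens the stages could hardly be read. Only H4 had 5 or more granulocytes, and its 6 cells held 1 primary granule UMI (213 CPM), 7 mature neutrophil UMIs (1492 CPM) and 20 cell cycle UMIs (4262 CPM).

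The share of single cells with a stage transcript was counted next. At least 1 primary granule UMI was found in 63 of the 245 spleen granulocytes, or 25.7% (exact 95% binomial interval 20.4% to 31.7%), and in 1.10% of the 1182 spleen B cells, which should lack it. The median depth was 934 UMIs in the granulocytes and 587.5 UMIs in the B cells. In S2, which gave most of the granulocytes, 4.72% of the B cells held such a UMI. When every cell was thinned to 400 UMIs the shares were 15.1% and 0.761%. In the CIA joint 101 of 723 granulocytes (14.0%) held such a UMI, and 6.64% did after thinning, beside 1.46% of the fibroblasts and 25% of the cells labelled T cells in the same joints.

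The thinned share differed widely between mice. It was 8.51% in S1, 18.4% in S2, 18.2% in S3 and 33.3% in S5, and 0 of 5 cells in S6 and 0 of 6 in S8, which allow shares of up to 60% and 50%. In joint the thinned share was 3.77% in S1, 18.2% in S3, 6.13% in S5, 0 of 8 cells in S6 and 17.8% in S8, so the organs overlapped. Without S2 the unthinned share of spleen granulocytes was 18.4%.

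The share of cells with Retnlg behaved differently. In CIA mice, 89 of 233 spleen granulocytes (38.2%) and 575 of 723 joint granulocytes (79.5%) held at least 1 Retnlg UMI, or 27.0% and 64.9% after thinning, while spleen B cells held 3.13%, or 2.20% after thinning. Per mouse the thinned share was between 0% and 31.3% in spleen and between 50% and 87.5% in joint, with no overlap. The background differed between the organs as well. In the severe mice 5.93% (S1), 4.72% (S2) and 8.33% (S3) of the spleen B cells held a Retnlg UMI after thinning, beside 25.5%, 31.3% and 13.6% of the granulocytes of the same spleens. In the CIA joints, where only 1 cell was labelled B cells, 92 of 411 fibroblasts (22.4%) and 25 of 132 T cells (18.9%) did so after thinning, at median depths of 1145 and 858 UMIs. This count in joint cells was added after the values had been seen, and the part of the background in the shares of the granulocytes was not tested.

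**Figure D3:**
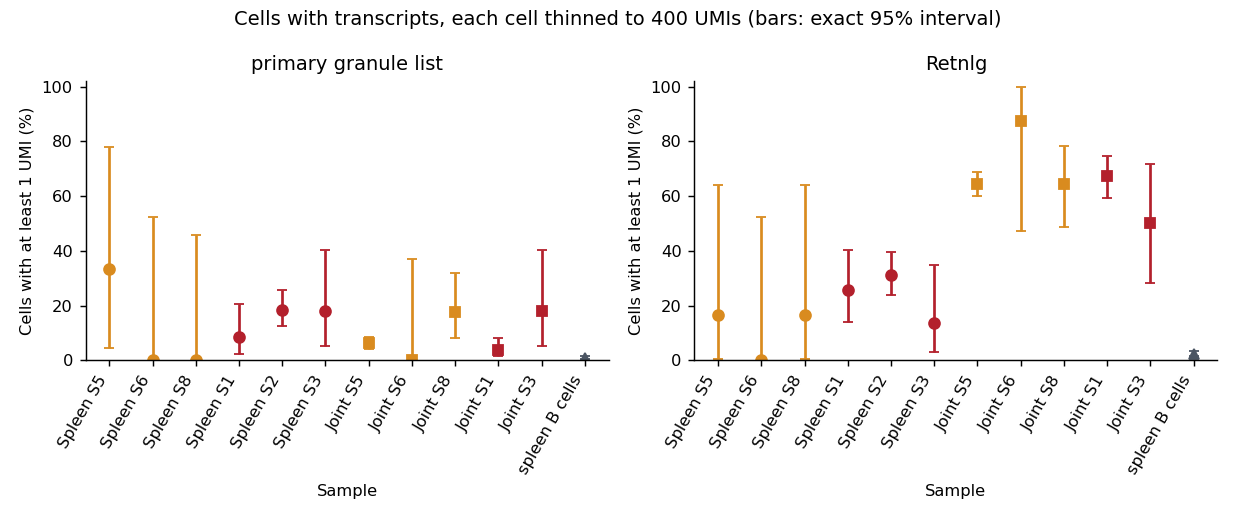
Percentage of cells with at least 1 UMI of the primary granule list (left) and of Retnlg (right), each cell thinned to 400 UMIs, in granulocytes of each CIA spleen (circles) and joint (squares) and in all spleen B cells (triangle), with mild mice in orange and severe mice in red. Bars are exact 95% binomial intervals. For Retnlg the spleens lie at or below 31.3% and the joints at or above 50%.

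Spleen granulocytes with and without primary granule transcripts were also compared in transcripts that the split did not use. These are pooled cells and not mice, since S2 gave 45 of the 63 cells with such a UMI and 27 of the 37 that kept one after thinning. Of the 63 cells, 47 (74.6%) also held a UMI of the 8 mitosis and S phase genes Mki67, Top2a, Birc5, Nusap1, Ube2c, Cdk1, Ccnb2 and Rrm2, compared with 61 of the other 182 cells (33.5%). The 63 cells were deeper, with a median of 1225 against 900.5 UMIs, and after thinning the shares were 14 of 37 (37.8%, exact 95% binomial interval 22.5% to 55.2%) and 49 of 208 (23.6%, 18.0% to 29.9%), with overlapping intervals. Retnlg was found in 8.11% (1.70% to 21.9%) and 28.8% (22.8% to 35.5%) of these cells after thinning. Within S2 alone the Retnlg shares were 11.1% (2.35% to 29.2%) and 35.8% (27.3% to 45.1%), with overlapping intervals.

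The mitosis and S phase genes themselves were seen in 26.6% of CIA spleen granulocytes, 9.96% of CIA joint granulocytes and 6.68% of spleen B cells after thinning. Per mouse the thinned share ran from 16.7% to 34.0% in spleen and from 0 to 31.8% in joint, so the organs overlapped, and in S3 it was 22.7% in spleen and 31.8% in joint.

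Most primary granule transcripts of the spleen lay outside the granulocyte label. Of the 1430 primary granule UMIs in labelled spleen cells, the granulocytes held 272 (19.0%), cells labelled Dendritic cells 595 (41.6%) and cells labelled T cells 419 (29.3%). In total 95 spleen cells held 3 or more such UMIs: 33 were labelled Dendritic cells, 31 T cells, 23 Granulocytes, 4 Monocytes, 3 Erythrocytes and 1 Endothelial cells. The 23 granulocytes among them came from S2 (20 cells) and S3 (3 cells). The 4 granulocyte markers held a median of 38.6% of the UMIs in those 23 cells, 15.0% in the 33 labelled Dendritic cells and 0.643% in the 31 labelled T cells. The highest number in a single cell was 148 UMIs under the label Dendritic cells and 33 under Granulocytes. This count over labels was added after the values had been seen, and the values of the primary granule list above hold for the label Granulocytes only.

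Elane, Prtn3 and Mpo, 3 of the 5 primary granule genes, share a short stretch of promoter letters. The sequences come from RefSeq for build GRCm38.p6, all on the + strand, and are shown because these genes mark the stage at which spleen and joint overlapped. Each runs from at most 250 bases before the gene's RefSeq start and holds only bases outside exons of a second annotation, GENCODE, whose starts differ. In GENCODE Prtn3 spans chr10:79874476-79883174, so its stretch lies inside that gene, between exons. Mpo starts at 87793581 and Elane at 79886247 there, directly after their stretches. Capitals mark GAGGAAGT, a form of the purine-rich motif of ETS factors such as PU.1, searched on both strands. The stretches lie at chr11:87793534-87793580 (Mpo), chr10:79886062-79886246 (Elane) and chr10:79879417-79879613 (Prtn3).
Mpo: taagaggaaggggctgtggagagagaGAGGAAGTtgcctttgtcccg
Elane: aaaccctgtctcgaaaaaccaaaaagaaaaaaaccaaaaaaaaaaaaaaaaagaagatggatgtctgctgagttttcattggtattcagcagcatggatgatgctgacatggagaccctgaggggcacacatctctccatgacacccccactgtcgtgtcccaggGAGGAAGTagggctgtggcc
Prtn3: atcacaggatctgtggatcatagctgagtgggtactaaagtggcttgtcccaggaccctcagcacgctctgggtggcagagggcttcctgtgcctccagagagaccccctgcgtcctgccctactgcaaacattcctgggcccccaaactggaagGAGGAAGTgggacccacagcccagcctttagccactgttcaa

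The motif began 224 bases before the RefSeq start of Mpo, 85 bases before that of Elane and 95 bases before that of Prtn3, and was not found before Ctsg or Ms4a3. It occurred in 1 of 8 specific granule promoters (Olfm4), in 1 of the 4 gelatinase granule promoters in the table (Mmp8), in 0 of 14 mature neutrophil promoters, and in 802 of all 32851 promoters (2.44%). A second motif, TTGCNNAA, the core of sites for C/EBP factors, was searched in the same way and occurred in 4 of 8 specific granule promoters (Fcnb, Lcn2, Ltf and Ngp), in 2 of the 4 gelatinase granule promoters in the table (Adam8 and Mmp8), in 4 of 14 mature neutrophil promoters, in 0 of 5 primary granule promoters and in 9.56% of all promoters. No primary granule promoter held both motifs. These are matches of letters in a window and not sites of binding.

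Gene by gene, granulocytes of the spleens of S1, S2 and S3 were compared with those of the joints of S1, S3, S5 and S8, the CIA samples with at least 10 such cells. All 3 spleens were from severe mice and 2 of the 4 joints from mild mice. Of 442 genes tested with edgeR's quasi-likelihood test, 41 (9.28%) passed an adjusted p of 0.05, of which 15 (3.39%) were higher and 26 (5.88%) lower in spleen. The count and the number of genes tested depended on single samples. It was 17 of 377, 65 of 891, 28 of 386 and 101 of 887 genes without the joint of S1, S3, S5 or S8. Without the spleen of S1, S2 or S3 it was 11 of 1269, 15 of 533 and 67 of 1194 genes. Among the mice of the experiment 2CIA alone 24 of 476 genes passed, and with the experiment as a term 5 of 442 passed. With the mouse as a block, which only S1 and S3 allow at this number of cells, 5 of 273 genes passed, all higher in spleen, and with 5 mice of at least 5 cells per organ 10 of 93 genes passed, 2 higher and 8 lower.

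Spleen and joint came from the same mice, and most of the calls below did not pass with the mouse as a block in S1 and S3. Igkc, Ighm, Cd74, Gm26917 and Gm23935 passed in that fit. Among the genes lower in spleen the adjusted p with the block was 0.122 for Hmox1, Atp6v1e1 and Srgn, 0.14 for Plaur, 0.152 for Ftl1, 0.206 for Gm6977, 0.263 for Fth1 and 0.362 for C5ar1 (edgeR). Among those higher in spleen it was 0.0817 for Rpph1 and Rprl3, 0.133 for n-R5-8s1 and Lars2, 0.157 for Rplp1, 0.206 for Klf2, 0.263 for Hist1h2an and 0.298 for Dusp1 (edgeR). The direction was the same for each of these genes. In the 5 mice with at least 5 cells Igkc, Ftl1, Fth1, Gm6977, Plaur and Srgn passed, and the others of these genes were too rare to be tested there. Clec4d, Hist1h1b, Ifit1bl2, Ankrd22, Por, H2-Aa, Gm15590 and Gm18867 could not be tested with a block in either set of mice.

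None of the 4 granulocyte markers passed. On the log2 scale the spleen to joint difference was 0.13 for S100a8, 0.35 for S100a9, 0.28 for Camp and −0.11 for Ngp, with adjusted p values of 0.663, 0.26, 0.586 and 0.831 in edgeR. The sign of Ngp and S100a8 changed with the setting. The samples of the organs overlapped for each of the 4 genes.

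Elane encodes neutrophil elastase. Its level in spleen granulocytes was 21.2 CPM in S1, 549 in S2, 751 in S3 and 0 in S5, S6 and S8. In joint granulocytes it was 42.1 CPM in S1, 128 in S3, 132 in S5, 0 in S6 and 402 in S8. S2 and S3 were the highest of the 11 samples and the other spleens lay among the joints, with a log2 difference of 1.49 ± 0.80 (SE, adjusted p = 0.26 in edgeR; 2.15 with an adjusted p of 0.0365 without the joint of S8). Elane was also seen in spleen cells with other labels, at 371 CPM in S2 and 499 CPM in S3, and its part in the granulocyte value was not tested.

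Prtn3 (proteinase 3) was at 127, 290 and 173 CPM in the spleens of S1, S2 and S3 and at 0 in the mild mice, and ran from 0 to 256 CPM in joint. Mpo was seen in the granulocytes of a single spleen, S2 (113 CPM, 21 UMIs), and in 3 joints at 14.0 to 70.9 CPM. Ms4a3 was present in every spleen, at 21.2 to 483 CPM, and in 4 of 5 joints, at 0 to 331 CPM. Its log2 difference was 0.45 ± 0.75 (SE, adjusted p = 0.732 in edgeR), and it was −0.25 without the spleen of S2. Of the 5 primary granule genes 2 were frequent enough to be tested, and none passed.

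Among the specific granule genes 7 of 8 were tested and none passed, with a median log2 difference of −0.08 beside −0.0055 over all genes tested. Camp and Ngp, which define the label, are among these 7. Fcnb (ficolin B), a gene of early specific granule stages, was at 657 to 2600 CPM in spleen and at 0 to 2506 CPM in joint and was higher in spleen in 4 of 5 mice (log2 difference 0.47, adjusted p = 0.673 in edgeR). Cd177, a surface glycoprotein of later stages, was at 0 to 597 CPM in spleen and at 544 to 1008 CPM in joint and lower in spleen in 5 of 5 mice (log2 difference −0.66, adjusted p = 0.296 in edgeR).

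In the gelatinase granule list, Mmp8 (neutrophil collagenase) was at 0 to 318 CPM in spleen and at 192 to 2678 CPM in joint and lower in spleen in 5 of 5 mice. Hp (haptoglobin) moved the other way, with 1268 to 2657 CPM in spleen and 449 to 1621 CPM in joint, higher in spleen in 4 of 5 mice. Neither passed (log2 difference −1.09 and 0.76, adjusted p = 0.215 and 0.292 in edgeR).

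All 7 tested mature neutrophil genes were lower in spleen by their estimate, beside 50.2% of all genes tested, and 1 of them, Clec4d, passed. The other 9 were too rare to be tested, and a gene enters the test more easily through the organ where it is high. The median log2 difference of the 7 was −1.51, and it lay between −1.65 and −1.39 with other ways of scaling the samples.

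Retnlg, which gave 47.6% of the UMIs of this list in spleen, was at 2036 CPM in S1, 1845 in S2, 289 in S3, 362 in S5, 254 in S6 and 118 in S8. In joint it was at 7520 CPM in S1, 2431 in S3, 6273 in S5, 9541 in S6 and 3736 in S8, so that every joint was above every spleen. The log2 difference was −1.64 ± 0.56 (SE, adjusted p = 0.0811 in edgeR) in the 7 samples tested and −3.22 with the mouse as a block in 5 mice (adjusted p = 0.00443 in edgeR). That block fit included the spleens of S3, S5, S6 and S8, with 5, 3, 2 and 1 Retnlg UMIs. With the block in S1 and S3 alone, 0 of the 4 mature neutrophil genes tested passed. Cells with other labels held Retnlg too, at 178 to 2374 CPM in joint and 71.5 to 443 CPM in spleen, and their part in these values was not tested.

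Clec4d, a C-type lectin receptor, was at 106, 64.5, 57.8, 242, 0 and 0 CPM in the spleens of S1, S2, S3, S5, S6 and S8. In the joints of S1, S3, S5, S6 and S8 it was at 414, 192, 582, 502 and 544 CPM. It was lower in spleen in 5 of 5 mice, with overlap through the spleen of S5 and the joint of S3, and with a log2 difference of −2.48 ± 0.49 (SE, adjusted p = 0.00812 in edgeR). The adjusted p was 0.0755 without the spleen of S1 and 0.115 without that of S2. In cells of the same samples with other labels Clec4d did not overlap either, at 92.7 to 347 CPM in joint and 0 to 66.5 CPM in spleen. The part of those cells in the granulocyte values was not tested. Clec4e (−1.85), G0s2 (−1.51), an inhibitor of lipolysis, Slpi (−1.38), Msrb1 (−0.93) and Mxd1 (−0.76) did not pass, with adjusted p values of 0.0531 to 0.317 in edgeR.

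Of the cell cycle list 5 of 30 genes could be tested and none passed, with a median log2 difference of 0.40 that fell to −0.11 with DESeq2 and to −0.18 with the experiment as a term. Hmgb2 was at 2820 CPM in S1, 2791 in S2, 1618 in S3, 2898 in S5, 2410 in S6 and 3531 in S8 in spleen. In joint it was at 1501, 1535, 1657, 1004 and 1513 CPM in S1, S3, S5, S6 and S8. Spleen was higher in 5 of 5 mice, and S3 alone lay within the joint range (log2 difference 0.78 ± 0.36 (SE), adjusted p = 0.185 in edgeR). With at least 5 cells per sample it was 1.04 (adjusted p = 0.0252 in edgeR), in a fit that did not pair the organs by mouse. With the mouse as a block at the same minimum, 1 cell cycle gene was tested (log2 difference 1.10) and did not pass.

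Outside the list, and named after their values were seen, the histone genes Hist1h1b and Hist1h2an passed as higher in spleen. Hist1h1b, a linker histone made in S phase, was at 763, 355, 231, 483, 380 and 589 CPM in the spleens of S1, S2, S3, S5, S6 and S8. In joint it was at 0 to 64.0 CPM in S1, S3, S5 and S6 and at 236 CPM in S8, so that only the joint of S8 reached the lowest spleen (log2 difference 3.05, adjusted p = 0.0253 in edgeR). The adjusted p was 0.0909 without the joint of S1, 0.0911 without that of S5, 0.152 without the spleen of S1 and 0.0596 without that of S2. Hist1h2an had a log2 difference of 2.86 (adjusted p = 0.0343 in edgeR) and lost its call without the same samples, with adjusted p values of 0.104, 0.127, 0.152 and 0.0593.

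Among the 10 transcription factors of granulopoiesis 2 were tested. Cebpe, the C/EBP factor needed for specific granules, was at 148 to 824 CPM in spleen and 64.0 to 298 CPM in joint and was higher in spleen in 4 of 5 mice (log2 difference 0.76, adjusted p = 0.351 in edgeR). Cebpb, a factor of emergency granulopoiesis, had a log2 difference of −0.55 (adjusted p = 0.511 in edgeR). Cebpd, too rare to be tested, was at 0 to 156 CPM in spleen and 166 to 384 CPM in joint, with no overlap.

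The gene with the largest difference towards the joint was Hmox1. Hmox1, which degrades haem, was at 42.4 CPM in S1, 21.5 in S2, 0 in S3, 0 in S5, 127 in S6 and 0 in S8 in spleen granulocytes, a total of 7 UMIs. In joint granulocytes it was at 505, 512, 878, 335 and 520 CPM in S1, S3, S5, S6 and S8. Every joint was above every spleen, and the log2 difference was −4.52 ± 0.58 (SE, adjusted p = 0.000981 in edgeR). With the mouse as a block in S1 and S3 it was −3.82 and did not pass (adjusted p = 0.122 in edgeR).

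Fth1 (ferritin heavy chain), named after its values were seen, was at 1696, 1619, 2715, 2657, 761 and 1648 CPM in the spleens of S1, S2, S3, S5, S6 and S8 and at 3838 to 17098 CPM in the joints. Ftl1 (ferritin light chain) was at 127 to 635 CPM in spleen and 1215 to 2070 CPM in joint. Neither overlapped between the organs, beside 14% of all genes tested that were lower in spleen without overlap among the 7 samples. The log2 differences were −2.16 ± 0.46 for Fth1 and −2.49 ± 0.51 for Ftl1 (SE, adjusted p = 0.0105 and 0.00907 in edgeR). Without the spleen of S1 the adjusted p was 0.111 and 0.105, and without that of S2 it was 0.0884 and 0.0879.

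Hmox1 and Fth1 were higher in joint in other cells too. In cells of the same samples with other labels, Hmox1 was at 214 to 753 CPM in joint and 7.94 to 33.2 CPM in spleen, Ftl1 at 899 to 2490 and 223 to 1024 CPM, and Fth1 at 3155 to 7529 and 1183 to 2372 CPM. Hmox1 and Fth1 did not overlap between the organs in those cells, whereas Ftl1 did, and in S5 it was at 934 CPM in joint and 1002 CPM in spleen. The macrophage list, which includes Hmox1, was at 335 to 947 CPM in joint granulocytes and at 0 to 242 CPM in spleen granulocytes. Its defining markers C1qa, C1qb and C1qc were at 0 UMIs in CIA spleen granulocytes and at 2, 10 and 7 UMIs in CIA joint granulocytes, against 564 UMIs of Hmox1 in the latter. They were also rarer than Hmox1 in CIA joint cells with other labels, at 65, 165 and 133 UMIs against 563. The source of Hmox1 in the granulocytes was not tested.

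**Figure D4:**
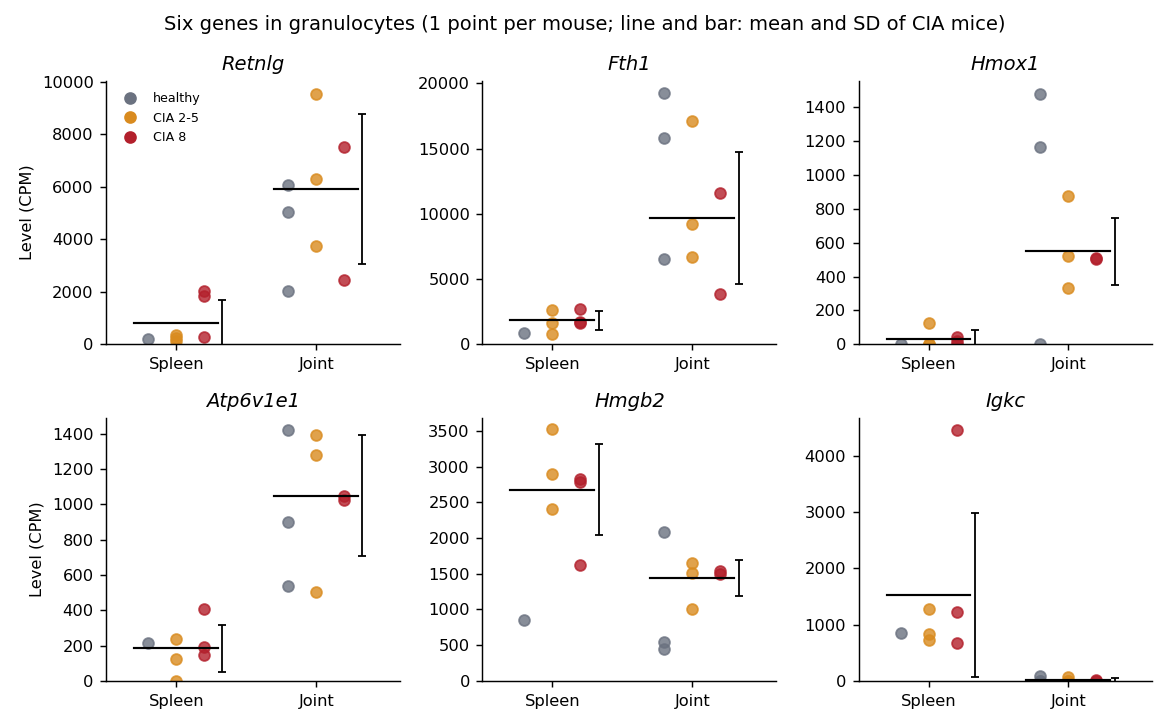
Level (CPM, linear axis from 0) of Retnlg, Fth1, Hmox1, Atp6v1e1, Hmgb2 and Igkc in granulocytes, with 1 point per mouse for healthy, mild (CIA 2-5) and severe (CIA 8) mice; lines and bars are the mean and SD of the CIA mice, with bars ending at the axis where they would pass below 0. Hmox1 lies at or below 127 CPM in CIA spleens and at or above 335 CPM in CIA joints.

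Of the 10 genes lower in spleen with the largest differences, Clec4d, Hmox1 and Ftl1 are given above. Ifit1bl2, a member of the interferon-induced IFIT family, was seen in the granulocytes of 1 spleen (21.5 CPM, 4 UMIs) and in 4 of 5 joints at 256 to 470 CPM (log2 difference −4.47, adjusted p = 0.00121 in edgeR). Ankrd22 was at 0 to 121 CPM in spleen and 128 to 601 CPM in joint (−2.80, adjusted p = 0.00812), Atp6v1e1, a subunit of the proton pump of lysosomes, at 0 to 404 and 502 to 1393 CPM (−2.32, adjusted p = 0.00715), and Por, the electron donor of haem oxygenase and P450 enzymes, at 0 to 173 and 0 to 355 CPM (−2.26, adjusted p = 0.0422). Of these, Ifit1bl2 kept its call when any sample was left out, whereas Ankrd22, Atp6v1e1 and Por lost it without the spleen of S1 (adjusted p = 0.111, 0.0956 and 0.163 in edgeR) or of S2 (0.0895, 0.0679 and 0.282), and Por also without the joint of S1 (0.0572). In cells with other labels Ifit1bl2 was at 17.8 to 116 CPM in joint and 0 to 8.89 CPM in spleen, with no overlap. Por was at 85.1 to 376 and 21.1 to 33.2 CPM there, also with no overlap. Ankrd22 (0 to 145 and 0 to 6.01 CPM) and Atp6v1e1 (107 to 355 and 88.3 to 227 CPM) overlapped. The part of those cells in the granulocyte values was not tested.

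The remaining 3 of the 10 were pseudogenes: Gm15590 (−4.13), Gm18867 (−3.37) and Gm6977 (−2.61), with adjusted p values of 0.028, 0.0359 and 0.0246 in edgeR. They share 85.8% of their 25-base windows with Ftl1-ps1, 11.7% with Eif5 and 26.2% with Fth1, so that the counting could have split reads between copies, and they are uncertain. Without the spleen of S1 their adjusted p was 0.105, 0.105 and 0.122, without that of S2 0.221, 0.219 and 0.131, and for Gm6977 without the joint of S1 0.0548.

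Plaur (the urokinase receptor) and Srgn (serglycin, the proteoglycan that holds granule proteins), named after their values were seen, were lower in spleen as well. Plaur was at 0 to 604 CPM in spleen and 837 to 2607 CPM in joint, and Srgn at 118 to 1208 and 1674 to 2672 CPM, both with no overlap. Their log2 differences were −2.24 and −1.78 (adjusted p = 0.0105 for each in edgeR). Plaur lost its call without the spleen of S1 (0.118) or S2 (0.101), and Srgn without the spleen of S1 (0.152) or S3 (0.0661).

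In the list of trafficking receptors 1 of 6 tested genes passed as lower in spleen, beside 5.88% of all genes tested: C5ar1, the receptor for the complement fragment C5a. It was at 148, 129, 57.8, 121, 0 and 118 CPM in the spleens of S1, S2, S3, S5, S6 and S8 and at 370 to 837 CPM in the joints, with no overlap (log2 difference −1.59, adjusted p = 0.03 in edgeR). The call was lost without the joint of S1 (0.0965) and without the spleen of S1 (0.152), S2 (0.213) or S3 (0.139). Cd44, an adhesion receptor for hyaluronan, was at 0 to 148 CPM in spleen and 128 to 355 CPM in joint (log2 difference −1.38, adjusted p = 0.0892 in edgeR). Cxcr4, which retains neutrophils in marrow, had a log2 difference of −0.06 (adjusted p = 0.957 in edgeR).

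None of the 6 tested activation and cytokine genes passed, with a median log2 difference of −1.05. Cxcl2, a neutrophil attractant, was at 0 to 1811 CPM in spleen and 1253 to 8202 CPM in joint, and Cd14, a co-receptor for lipopolysaccharide, at 0 to 578 and 402 to 1841 CPM. Each was lower in spleen in 5 of 5 mice (log2 differences −1.11 and −1.68, adjusted p = 0.114 and 0.0679 in edgeR). Ccl3 and Ccl4 had log2 differences of −0.99 and −2.12, and Nfkbia, an inhibitor of NF-kB, of 0.50 (adjusted p = 0.268, 0.166 and 0.582 in edgeR).

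The NADPH oxidase genes, which make the oxidative burst, did not pass in any of 5 tested, with log2 differences from −0.50 (Cybb) to 0.64 (Ncf4). Of the interferon response genes 3 of 17 were tested and none passed. Ifi27l2a was at 235 to 1166 CPM in spleen and 142 to 1004 CPM in joint and was higher in spleen in 5 of 5 mice (log2 difference 1.04, adjusted p = 0.243 in edgeR).

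Among the 10 genes higher in spleen with the largest differences, 4 were genes of B cells and antigen presentation. Igkc (immunoglobulin kappa constant region) was at 1230, 672, 4448, 725, 1268 and 824 CPM in the spleens of S1, S2, S3, S5, S6 and S8 and at 0 to 72.5 CPM in the joints (log2 difference 5.73 ± 0.78 (SE), adjusted p = 0.00105 in edgeR). Ighm was at 118 to 1675 CPM in spleen and 0 to 167 CPM in joint, Cd74 at 353 to 1208 and 0 to 95.4 CPM, and H2-Aa at 276 to 1141 and 0 to 128 CPM. Their log2 differences were 4.47, 3.50 and 3.35 (adjusted p = 0.00576, 0.00121 and 0.00283 in edgeR), and H2-Aa lost its call without the spleen of S2 (0.0728). Of the B cell list 3 of 3 tested genes rose, beside 3.39% of all genes tested. Igkc, Cd74 and H2-Aa did not overlap between the organs, as was so for 7.24% of all genes tested in that direction. The B cell list as a whole was at 1931 to 7337 CPM in spleen granulocytes and 64.0 to 282 CPM in joint granulocytes. In spleen cells with other labels Igkc was at 4045 to 17430 CPM, above the granulocytes of the same spleen in every mouse with granulocytes except S3 (4045 against 4448 CPM), and its source in the granulocytes was not tested.

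The other 6 were noncoding or structural RNAs and Lars2. Gm26917 (3.49), Gm23935 (3.21), n-R5-8s1 (2.53), Rpph1 (2.5), the RNA of ribonuclease P, Rprl3 (2.39), a related ribozyme RNA, and Lars2 (1.59), a mitochondrial leucyl-tRNA synthetase, had adjusted p values of 0.00564 to 0.0364 in edgeR. For all 6 the samples of the organs overlapped once the mild spleens and the joint of S6 were included. Each lost its call without the spleen of S1, with adjusted p values of 0.0854 to 0.345. That spleen held the highest level of each, for example 1930 CPM of Gm26917 against 0 to 347 CPM in the other spleens. Rprl3 also lost its call without the joint of S1 (0.056) or S5 (0.0641), and Lars2 without any single joint (0.068 to 0.0965) or the spleen of S2 (0.119).

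**Figure D5:**
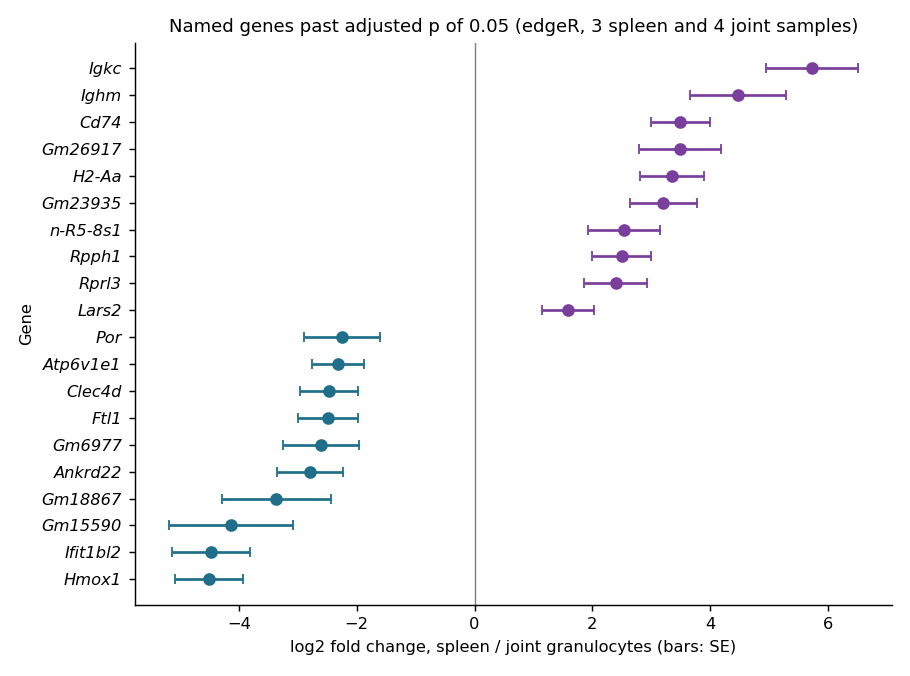
Log2 difference of spleen to joint granulocytes (horizontal axis, bars are the SE) for the 10 genes on each side named by the rule for named genes, from 3 spleen and 4 joint samples. Igkc lies furthest to the spleen side (5.73) and Hmox1 furthest to the joint side (−4.52).

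All 33 tested ribosomal protein genes were higher in spleen by their estimate, whereas 50.2% of all genes tested had a lower one. Of the 33, 1 passed the threshold, beside 3.39% of all genes tested that passed as higher in spleen. The list had a median log2 difference of 0.80 that lay between 0.67 and 0.90 across scalings, the experiment term and the block. The list summed to 21565 to 37204 CPM in spleen and 8537 to 23716 CPM in joint, with overlap. The gene that passed, Rplp1, an acidic protein of the ribosomal stalk, was at 362 to 867 CPM in spleen and 64.0 to 335 CPM in joint (log2 difference 1.58, adjusted p = 0.0293 in edgeR). It lost its call without the joint of S1 (0.104) or S5 (0.0539) and without the spleen of S1 (0.152), S2 (0.118) or S3 (0.0667).

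Of the immediate early genes, which respond within minutes to stress and dissociation, 7 of 8 tested had a higher estimate in spleen, whereas 50.2% of all genes tested had a lower one. The summed list overlapped, at 3551 to 7210 CPM (median 5251) in CIA spleens and 2495 to 8704 CPM (median 4960) in CIA joints. Dusp1, a phosphatase of MAP kinases, was the one that passed, beside 3.39% of all genes tested (log2 difference 1.56, adjusted p = 0.0359 in edgeR). Klf2, a transcription factor outside the list that was named after its values were seen, had a log2 difference of 1.45 (adjusted p = 0.037 in edgeR). Both overlapped between the organs when the mild mice were included, and both lost their call without any single joint (adjusted p = 0.0548 to 0.127) and without the spleen of S1 (0.328 and 0.317) or S2 (0.11 and 0.166).

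Between CIA and healthy spleens the granulocytes could be compared over 6 CIA mice and the healthy mice H3 and H4, which together gave 10 cells. Of 64 genes tested none passed in edgeR (0%) or in DESeq2, and 4 (6.25%) and 5 had an unadjusted p under 0.05. The 5 genes with the smallest p did not pass. Of the 4 granulocyte markers 1 had a lower estimate in CIA, and of the 5 specific granule genes tested 2, beside 43.8% of all genes tested. The markers define the label, and Camp and Ngp are in both sets. Hmgb2 was at 1207 CPM in H3 and 852 CPM in H4, from 4 UMIs each, and at 1618 to 3531 CPM in the CIA mice (log2 difference 1.47 ± 0.44 (SE), adjusted p = 0.46 in edgeR). B2m, the light chain of MHC class I, had a log2 difference of 1.57, Hp of 1.05, the immediate early gene Ier2 of −1.01 and the small nuclear RNA Rn7sk of −2.03 (adjusted p = 0.46 to 0.613 in edgeR), from 5, 7, 18 and 31 UMIs in the healthy mice. The mature neutrophil list had 1 gene tested and the primary granule list none, so no change of stage with disease was detectable at this depth. Within the experiment CIA, where H4 is the only healthy mouse, 7 of 68 genes passed, with H4 assumed to vary like the CIA mice.

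Between severe and mild spleens 0 of 62 genes (0%) passed in edgeR or in DESeq2, and 2 (3.23%) and 3 had an unadjusted p under 0.05. The mild mice rested on 5 or 6 cells each. By list, the specific granule genes had a lower estimate in severe mice for 6 of 6 tested, beside 38.7% of all genes tested. Their median log2 difference was −0.40, against 0.12 over all genes tested. The 4 granulocyte markers, which define the label, were lower in 4 of 4. This is no separate result, since Camp and Ngp are in both sets. The genes with the smallest p were Hbb-bs, a haemoglobin chain (2.44), Wfdc17 (1.87), Chil3 (−0.84), the nuclear RNA Malat1 (0.98) and H2-K1 (−0.74), with adjusted p values of 0.78 to 0.845 in edgeR. Wfdc17 and Malat1 were higher in severe mice without overlap, as were 8.06% of all genes tested. Hbb-bs was at 924 to 29432 CPM in the severe and 1648 to 3140 CPM in the mild spleens, and the spleens of S1 and S2, with the most Hbb-bs, held 69 and 99 cells labelled Erythrocytes, against 3 in S3 and 7 to 18 in the mild mice. The part of those cells in the Hbb-bs value was not tested. Without the spleen of S3 4 genes passed, and without that of S2 1 gene passed.

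By summed level the mild and severe spleens differed in their stage lists without a consistent order. The mature neutrophil list was at 1849 to 3796 CPM in the severe and 942 to 2294 CPM in the mild spleens, with overlap. The cell cycle list was at 4333 to 5856 CPM in the severe and 6159 to 6722 CPM in the mild spleens, with no overlap, and rested on 159 UMIs in the mild mice.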

How the data were processed

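Single-cell suspensions of 48 samples were profiled by Seq-Well. The authors processed the reads with bcl2fastq, Picard, the Drop-seq tools and STAR and deposited raw UMI counts per gene and cell (34586 genes, 13240 cells) with a cell type label for 12096 cells, assigned from denoised counts, reference profiles, clusters and marker genes. The study's methods name build GRCm38. Columns without a sample numbered 0. Cells were taken by label, and UMI counts were summed per mouse and organ, without a doublet caller.

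Sums were compared with edgeR 4.0.16 in R 4.3.3 (limma 3.58.1): TMM scaling, filterByExpr, quasi-likelihood test, Benjamini-Hochberg adjustment, threshold 0.05, SE taken as the log2 difference over the root of F. Samples needed at least 10 cells for spleen against joint, 3 for CIA against healthy and 5 for severe against mild, since mild spleens held no more than 6. Shares were compared with two-sided exact permutation tests in SciPy 1.17.1 (Python 3.11.15, NumPy 2.4.6, pandas 2.3.3; figures with matplotlib 3.10.9). Intervals are exact 95% binomial intervals and, like the limit of 3 counts for a count of 0, cover counting error only. For cell shares every cell was thinned to 400 UMIs. DESeq2 1.42.0, other scalings, filters, cell minimums, the experiment as a term and leaving out each sample were tried.

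Spleen and joint samples are paired by the mouse named in the labels. Over 93 genes the deviations of a mouse's organs correlated at 0.335 (S1), 0.260 (S3), 0.187 (S5), −0.0352 (S6) and −0.00559 (S8). The main spleen against joint fit had organ as its only term and treated samples as independent, although S1 and S3 gave both organs. Its p-values ignore that pairing and measure a spread that also holds severity and experiment. The p-values of the share, disease and severity comparisons measure the spread between mice. In the share and disease comparisons the CIA mice differ in severity and experiment, so that this spread holds both as well. In the severity comparison, severity and experiment cannot be told apart. Where a mouse gave few granulocytes, the spread also holds counting error.

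The members and gene lists were chosen with earlier results of these data known. Genes were named where they passed the adjusted p without overlap of the samples tested (up to 10 with the largest difference on each side) or were list members with at least 20 UMIs, and where none passed, the 5 with the smallest p. Fth1, Dusp1, Klf2, Rplp1, Hist1h1b, Hist1h2an, Plaur and Srgn were named after their values were seen.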

Additional observations from a re-analysis of the deposited data

Results flagged for a closer look

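Among 131 groups of samples tested for a single sample far from the others, 20 had one, and chance gives about 1 in 20. The joint of S6, which held 8 granulocytes, gave 10 of them. It was above the other CIA joints for Mmp8 (2678 CPM), Slpi (1172 CPM), C5ar1 (837 CPM), Gm23935 (1339 CPM), n-R5-8s1 (502 CPM), Dusp1 (670 CPM), Klf2 (1004 CPM), Rn7sk (1674 CPM) and Malat1 (8872 CPM), and below them for Hmgb2 (1004 CPM). The joint of S8 was above the others for Hist1h1b (236 CPM).

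Among the CIA spleens, S3 was above the others for G0s2 (578 CPM), Gm6977 (809 CPM), Por (173 CPM) and Igkc (4448 CPM) and below them for Ier2 (635 CPM). S1 was above the others for Gm26917 (1930 CPM) and Gm23935 (2841 CPM), S6 for Hmox1 (127 CPM, 1 UMI) and S2 for Ifit1bl2 (21.5 CPM).

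Spleen cells without a cell type label, which no comparison used, also held granulocyte markers. At least 20% of the UMIs came from the 4 markers in 17 of 75 such cells in S1, 17 of 61 in S2 and 3 of 11 in S3. In mild mice it was 1 of 32 cells in S5, 0 of 29 in S6 and 0 of 31 in S8. In healthy spleens it was 2 of 27 cells in H3, 1 of 76 in H4, 0 of 31 in H6 and 0 of 23 in H7.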

How the results depend on the processing

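The share of granulocytes in CIA against healthy spleens was 6.71 percentage points higher, 6.19 with all cells as the denominator, 6.95 with the Neutrophils label added, and 5.09 to 7.98 without single mice. Of spleen against joint, 41 of 442 genes passed. It was 27 of 16482 without the filter on low counts and 15 of 108 with at least 5 cells per sample. With the experiment as a term 5 of 442 passed, and within the experiments 2CIA and CIA alone 24 of 476 and 5 of 42. Without single samples 11 to 101 passed, of 377 to 1269 genes tested. Of the 27, 15, 24 and 101 genes, 7, 9, 19 and 35 were among the 41. The cause was not tested. With the mouse as a replicate block 5 of 273 genes passed, and 10 of 93 with at least 5 cells per sample. For CIA against healthy 7 genes passed within the experiment CIA and 0 to 1 without single mice, and for severe against mild 10 without the filter and 0 to 4 without single mice. Cells with a primary granule UMI were 15.1% after thinning, 13.9% with at least 2 UMIs and 18.4% to 28.3% without single mice.

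The log2 ratio of spleen to joint turned for the primary granule list within the experiment CIA (−0.36, from 8 UMIs in spleen). It also turned for the specific granule list with at least 10 cells per sample (−0.034). For the gelatinase granule list it turned in that setting (0.094), within 2CIA (0.014) and without the joint of S6 (0.11). Without single samples the ratios ran from 0.32 to 1.24 (primary), 0.14 to 0.48 (specific), −0.65 to 0.11 (gelatinase), −2.29 to −1.94 (mature) and 0.60 to 0.86 (cell cycle). Among single genes, none of which passed in these settings, the sign turned for Camp (−0.027), S100a8 (−0.11), Chil3 (0.55), H2-K1 (0.55) and Ier2 (0.19) without the filter. It also turned for Ngp with at least 5 cells (0.28), that with the block (0.33), the experiment term (0.083), 2CIA (0.019) or CIA alone (0.25), and without the joint of S5 or the spleen of S3 (−0.26 to 0.092 over single samples). It turned for S100a8 with the block (−0.034), the experiment term (−0.024) and 2CIA alone (−0.080), for Ms4a3 without the spleen of S2 (−0.25 to 1.04 over single samples) and for Rn7sk without H4 (−2.61 to 0.097 over single mice). Of the values of named genes that passed, 245 kept and 77 lost the call under other settings, 124 kept and 67 lost it without single samples, and none turned.

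The 3 spleens tested were all severe and from 1 experiment, the mild spleens held 5 or 6 granulocytes and the healthy spleens at most 6, so that differences with disease or severity in single genes were not detectable at this depth except where named.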

Other observations

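In the spleen, cells labelled Dendritic cells were 11% of labelled cells in CIA mice and 2.31% in healthy mice (two-sided exact permutation test over 6 and 4 mice, p = 0.0619, adjusted p = 0.248). They held the highest primary granule level of the labels with over 100 cells, 2136 CPM, against 1573 CPM in T cells, 956 CPM in Granulocytes and 17.8 CPM in B cells. Of the cells with 3 or more primary granule UMIs under the label Dendritic cells, 24 came from S2, 4 from S3, 3 from S1 and 1 each from the healthy mice H3 and H4, and none from the mild mice.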
